A study of Gallus gallus with 6 samples.

Results

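A set of 7 chicken genes, grouped as host factors used by avian retroviruses, was followed in liver: tvb, BTN1A1, SSRP1, PSIP1, TSG101, TRIM62 and CCDC84. No retroviral role is given here for CCDC84, and those of PSIP1 and TSG101 are described from lentiviruses such as HIV in human cells. For TRIM62, nothing given here says that a virus uses it. The genes were found by symbol, without regard to case, and gave 7 of the 14481 protein-coding genes in the expression table. Each symbol matched a single row. The samples were livers of 3 chickens labelled resistant and 3 labelled susceptible to subgroup J avian leukosis virus (ALV-J). Total RNA was sequenced, and levels are FPKM, fragments per kilobase of transcript scaled to library size. The labels of both groups name the same tissue and give no age, sex, breed, genotype or infection status, so whether any bird had met the virus is not known. Viral RNA was not analysed here.

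Avian leukosis viruses enter a cell through receptors that differ by subgroup, copy their RNA into DNA, and insert that DNA into a chromosome with their integrase. New particles are assembled at the cell membrane by the Gag protein and are cut loose with help from the cell's membrane-scission machinery. tvb is a death receptor of the tumour necrosis factor receptor family that serves subgroups B, D and E, and RefSeq lists TVB as a synonym of TNFRSF10B. BTN1A1, with the synonym TVC, is an immunoglobulin-superfamily protein that serves subgroup C.

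SSRP1 had the smallest p of the members, all 3 resistant livers standing below all 3 susceptible livers. TRIM62 was listed at 0 in 2 resistant livers, and CCDC84 was listed at 0 in all 3 susceptible livers. The receptors tvb and BTN1A1 had their highest level in the same bird, susceptible 3, as did SSRP1 and TRIM62. TSG101 and PSIP1 overlapped between the groups. None of the 7 genes passed the test over all genes, and with all 6 birds SSRP1 was the only member with an unadjusted p under 0.05. That is 14.3% of the members, against 3.87% of the 9626 genes tested by limma. Resting on 1 gene, and with members chosen when earlier results of these data were known, this contrast is a description only. Over all genes limma called 0 at an adjusted p under 0.05. At an unadjusted p under 0.05 it counted 231 genes (2.4%) as higher and 142 (1.48%) as lower in resistant birds.

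**Figure D1:**
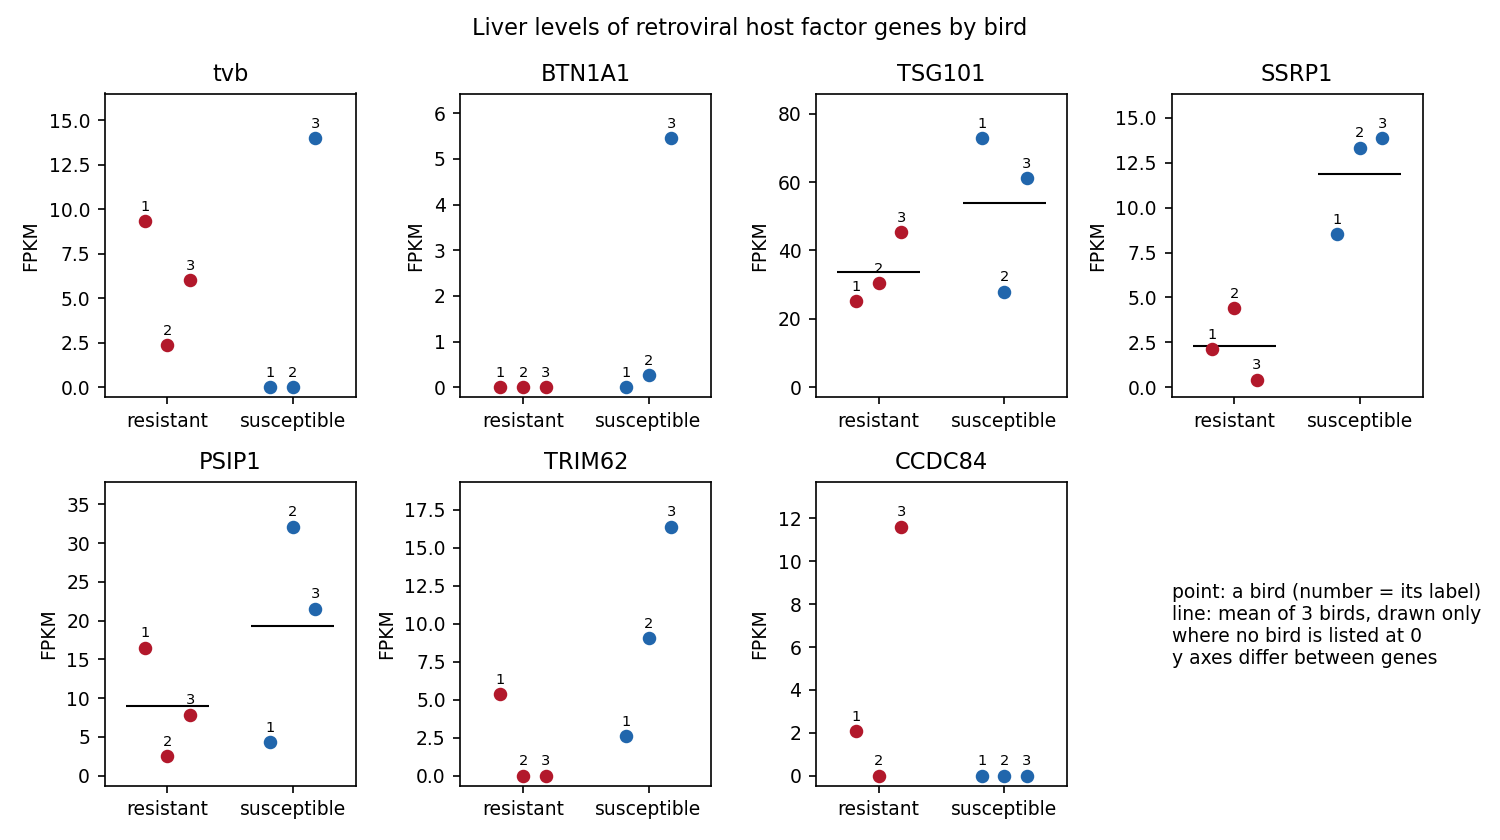
FPKM of each gene (y axis, a separate scale for each gene) in the 3 resistant and 3 susceptible birds; each point is a bird, numbered as labelled, and the line is the group mean where no bird is listed at 0. The SSRP1 points of the resistant birds, 0.408 to 4.38, all lie below those of the susceptible birds, 8.50 to 13.9, while the points of the other 6 genes overlap or share the value 0.

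Some facts of the libraries bear on these values. The scaled counts deposited beside the FPKM values correspond to 3831119 to 6623026 fragments per bird. Of the 10 hepatocyte markers all were in the table, with a summed FPKM of 19184 to 67310 in resistant and 37688 to 63473 in susceptible birds. ALB, the serum albumin gene, was nevertheless listed at 0 in resistant 2 and susceptible 3, so a 0 is reported below as a listed value and not as absence. Summed levels of the 9 marker lists of liver and other cell types overlapped between the groups in every list. In whole liver, fewer cells of a type and less RNA per cell cannot be told apart.

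The members lay on 6 chromosomes, and no other gene of the table overlapped any of them. Of their 42 values, 12 were listed at 0, 6 of 21 in resistant and 6 of 21 in susceptible birds. TSG101, SSRP1 and PSIP1 were above 0 in all 6 birds, and each of the other 4 genes was listed at 0 in at least 1. TSG101 was the most abundant member in 5 of the 6 birds on the FPKM scale, with a mean above that of 87.8% of the genes tested. PSIP1, above 66.9% of them, exceeded it in susceptible 2 alone, with 32.1 against 28.0. SSRP1, TRIM62 and tvb lay near the middle, above 47.8%, 40.7% and 39.4% of the genes, and their order changed from bird to bird. CCDC84 lay above 19.6% of the genes and BTN1A1 above 6.11%.

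The receptor gene tvb, on chromosome 22 (plus strand, 1270094 to 1276295 in galGal4), had an FPKM of 9.32, 2.36 and 6.01 in resistant 1 to 3. In susceptible 1 to 3 it had 0, 0 and 14.0. It was thus found in all resistant birds, but its highest level stood in a susceptible bird. The values above 0 rested on 34 to 147 fragments. Its log2 fold change was 1.34 (SE 1.17, 95% interval -1.27 to 3.95), and the limma adjusted p was 0.984, on the scale of log2(FPKM + 1), where changes of low genes appear smaller than they are. The sign turned on how the 0s were read: with 0s as missing, the value was -1.26, and susceptible 3 alone stood for its group. Among the 2136 other genes with a mean within 1.5-fold of that of tvb, 30.7% were listed at 0 in 2 or more birds. Of the same genes 18.1% were at 0 in susceptible 1 and 35.4% in susceptible 2. Without susceptible 3 the log2 fold change was 2.64, and without susceptible 1 or susceptible 2 it was 0.69. It was 2.56 over the 4 birds with fragments on chromosome W, described below, and 3.32 with a pseudocount of 0.1. limma gave an unadjusted p of 0.020 without susceptible 3 and of 0.033 over those 4 birds, against 0.279 with all birds. In both cases every susceptible bird left was listed at 0. The unadjusted limma p was 0.59 without susceptible 1, 0.58 without susceptible 2 and 0.24 to 0.51 without any single resistant bird.

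BTN1A1, on chromosome 28 (minus strand, 803320 to 808851), was listed at 0 in the 3 resistant birds. In susceptible 1 to 3 its FPKM was 0, 0.263 and 5.45, values that rested on 0, 2 and 54 fragments. Its level was therefore carried by susceptible 3, and without that bird the gene fell under the filter of a mean FPKM of 0.5 and was not tested. The log2 fold change over all birds was -1.01 (SE 0.83, 95% interval -2.88 to 0.86), and the limma adjusted p was 0.984. Being fitted against a group at 0, this value depends on the pseudocount and was -2.55 with a pseudocount of 0.1. Of 920 genes at a like mean level, 51.6% were listed at 0 in 4 or more birds.

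The list of receptors and entry proteins held 4 of its 8 symbols in the table. HSPA5, the endoplasmic reticulum chaperone BiP, also described as an entry factor for ALV-J, had an FPKM of 205, 151 and 219 in resistant 1 to 3, against 232, 295 and 448 in susceptible 1 to 3. The groups did not overlap, as in 8.41% of all genes tested, 3.98% with lower values in resistant birds. The log2 fold change of HSPA5 was -0.72 (SE 0.38), with a limma adjusted p of 0.984. CD320, a relative of the subgroup A receptor, was listed at 0 in all 6 birds. Of 23 listed genes of death receptor signalling, which include receptors and a ligand, 20 were tested, tvb included. Of these, 12 had higher and 8 lower values in resistant birds, with 0 passing limma over all genes and 0 at an unadjusted p under 0.05. Their median log2 fold change was 0.61, against 0.05 over all genes tested, and it was -0.11 without susceptible 3. TNFSF10, the TRAIL ligand of such receptors, had 272, 330 and 213 in resistant 1 to 3, against 93.3, 327 and 120 in susceptible 1 to 3. The adaptor TRAF2, the caspase CASP18 and BID, a substrate of caspase 8 that carries the signal to mitochondria, had log2 fold changes of 1.89, 1.74 and -1.20. All overlapped between the groups. TRAF2 was at 1.08 without resistant 1 and at 3.06 without resistant 2. CASP18 was at 0.59 without susceptible 2 or with 0s as missing and at 2.89 without susceptible 3, and BID was at -0.57 without resistant 3.

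SSRP1 and PSIP1 act where viral DNA meets chromatin. SSRP1 is a subunit of the FACT histone chaperone, which binds the integrase of avian leukosis virus and aids its integration. Its FPKM, on chromosome 5 (plus strand, 16332743 to 16340495), was 2.11, 4.38 and 0.408 in resistant 1 to 3, against 8.50, 13.3 and 13.9 in susceptible 1 to 3. All resistant birds stood below all susceptible birds, and the lowest value, in resistant 3, rested on 4 fragments. The means were 2.30 ± 1.99 in resistant livers and 11.9 ± 2.95 in susceptible livers (SD, n = 3 each). SSRP1 was the only member whose groups did not overlap. Of all genes tested, 8.41% had groups that did not overlap, 4.44% with higher and 3.98% with lower values in resistant birds.

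The log2 fold change of SSRP1 was -2.14 (SE 0.79, 95% interval -3.91 to -0.37). limma gave an unadjusted p of 0.023 and an adjusted p of 0.984, so the difference did not pass over all genes. Over the 16 alternatives the log2 fold change lay between -2.81 and -1.51, though some of them, such as robust moderation, could not move it. Since the groups did not overlap, leaving out birds could not change its sign. Without resistant 3 limma gave an unadjusted p of 0.0504, and without susceptible 3 one of 0.057. FACT is abundant in dividing cells, whose 12 markers overlapped between the groups as a sum. Their summed FPKM was 31.2, 50.5 and 151 in resistant 1 to 3, against 128, 20.0 and 135 in susceptible 1 to 3. Among them TK1, which makes thymidine monophosphate for DNA synthesis, stood at 0 in the 3 resistant birds and at 5.48, 15.3 and 16.9 in susceptible 1 to 3. CCNB2, a mitotic cyclin, ran the other way, with 1.44, 1.86 and 11.1 in resistant 1 to 3, against 0.164, 0 and 0 in susceptible 1 to 3. TOP2A and PCNA also had positive log2 fold changes, 1.19 and 1.17. In the other direction, TK1 was at -3.63, a value fitted against a group at 0 that depends on the pseudocount. The remaining markers tested lay between -0.94 (TYMS) and -0.02 (RRM2). PCNA was the largest part of the sum in every bird but susceptible 2, where it was listed at 0. The part of these markers in the SSRP1 result was not tested. SUPT16H, the partner of SSRP1 in FACT, was not analysed here.

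PSIP1 encodes LEDGF, a chromatin-bound protein known from human cells to tether the integrase of lentiviruses such as HIV. Its gene lies on the sex chromosome Z (minus strand, 31796053 to 31830251), of which male birds carry a pair and hens a single copy. Its FPKM was 16.5, 2.49 and 7.84 in resistant 1 to 3, against 4.31, 32.1 and 21.5 in susceptible 1 to 3. The groups overlapped, and the spread within each was wide, with means of 8.94 ± 7.06 in resistant livers and 19.3 ± 14.0 in susceptible livers (SD, n = 3 each). Its log2 fold change was -0.96 (SE 0.87, 95% interval -2.90 to 0.98), and the limma adjusted p was 0.984. That value was -0.35 without resistant 2 and -0.43 without susceptible 2, and it was -1.75 without susceptible 1 and -1.51 without resistant 1.

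The deposited counts held 413 and 427 fragments on the hen-specific chromosome W in resistant 2 and resistant 1, 145 and 406 in susceptible 2 and susceptible 1, and 0 in resistant 3 and susceptible 3. PSIP1 levels in the 4 birds with such fragments, 2.49 to 32.1, spanned those of the 2 birds without, 7.84 and 21.5. Over the 4 birds with such fragments the log2 fold change of SSRP1 was -1.51, with an unadjusted p of 0.095 from limma. Over genes above 0 in every bird, the median log2 FPKM of chromosome Z minus that of autosomes was 0.34 in resistant 3 and 0.15 in susceptible 3. In the other 4 birds it lay between -0.47 and -0.29. By both measures resistant 3 and susceptible 3 read as males and the other 4 birds as hens. Susceptible 3 was highest for tvb, BTN1A1, SSRP1 and TRIM62, and resistant 3 for CCDC84. Resistant 3, however, was the lowest bird for SSRP1, at 0.408, and was listed at 0 for BTN1A1 and TRIM62. Susceptible 3 was listed at 0 for CCDC84, and its SSRP1 level of 13.9 was close to the 13.3 of susceptible 2. The part of sex in these levels was not tested.

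**Figure D2:**
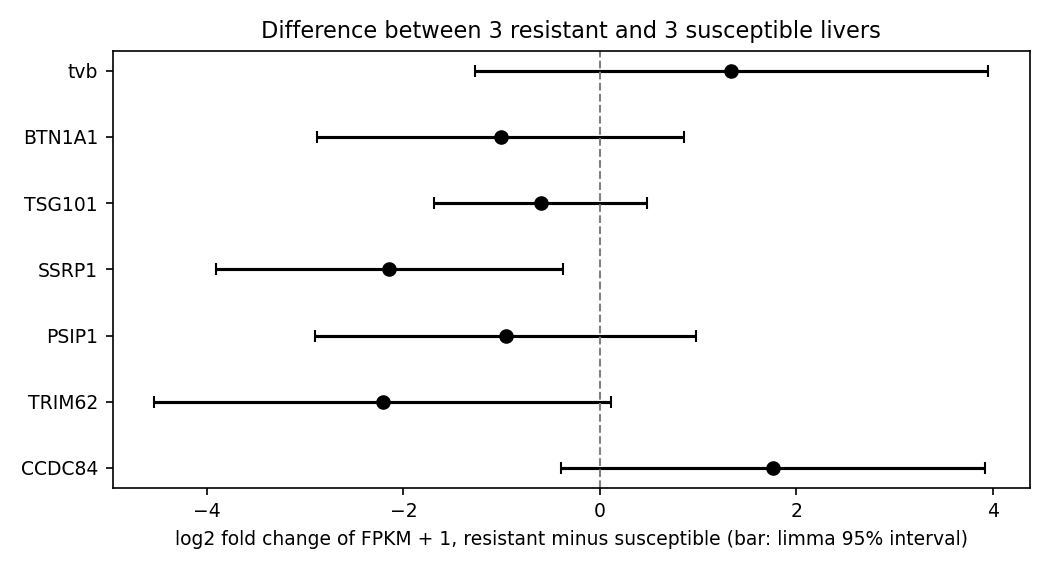
Log2 fold change of FPKM + 1 (x axis), resistant minus susceptible, for each gene, with its 95% interval from limma over 3 birds in each group. The interval of SSRP1, -3.91 to -0.37, lies below 0, whereas those of the other 6 genes include 0.

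Among the wider list of nuclear import, integration and chromatin genes, 20 of 33 symbols were in the table and all were tested. In resistant birds 8 had higher and 12 lower values; the median log2 fold change was -0.23, and 0 passed limma over all genes. SSRP1 and KPNA4 had an unadjusted p under 0.05 by limma, both lower, as did 1.48% of all genes tested. Apart from SSRP1, the genes named here are those with the smallest p of the list. KPNA4, an importin alpha that carries proteins into the nucleus, had an FPKM of 41.4, 44.7 and 30.7 in resistant 1 to 3, against 71.4, 81.9 and 140 in susceptible 1 to 3. Its log2 fold change was -1.26 (SE 0.41). The importins KPNA1 and IPO7 likewise had groups that did not overlap. With SSRP1 and KPNA4 they made 4 of the 20 genes, all lower in resistant birds. Of all genes tested, 3.98% separated the groups with lower and 4.44% with higher values. KPNA1 averaged 12.8 ± 3.64 in resistant livers and 21.3 ± 0.70 in susceptible livers, and IPO7 averaged 55.8 ± 9.27 in resistant livers and 82.6 ± 10.8 in susceptible livers (SD, n = 3 each). TNPO3, the importin that carries splicing factors, had 2.09, 4.46 and 7.51 against 6.20, 0 and 0.157 in susceptible 1 to 3. All of these had a limma adjusted p of 0.984.

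Over the list for export and handling of viral RNA, 18 genes were tested, 7 higher and 11 lower in resistant birds around a median of -0.05. None passed limma over all genes, 0 had an unadjusted p under 0.05, and no gene of the list separated the groups. PABPC1, the cytoplasmic poly(A)-binding protein, had 620, 180 and 374 in resistant 1 to 3, against 436, 1029 and 564 in susceptible 1 to 3. The splicing regulator PTBP1 and the RNA helicase DDX19B, which acts at the nuclear pore, had log2 fold changes of -0.67 and -0.87, and of -0.18 and -0.015 without resistant 2. XPO1, the exportin of proteins with a leucine-rich signal, had 61.2, 46.3 and 92.2 in resistant 1 to 3, against 86.3, 79.9 and 74.0 in susceptible 1 to 3, with a log2 fold change of -0.32. A second row of that symbol, with the smaller p, ran the other way, with a log2 fold change of 1.57. It had 0, 1.51 and 13.0 in resistant 1 to 3, against 0, 0 and 0.345 in susceptible 1 to 3. That row was thus listed at 0 in 3 birds, and how reads were divided between the rows is not known here.

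TSG101 is the subunit of the ESCRT-I complex that sorts cargo into endosomal vesicles and, in human cells, is recruited by the Gag protein of HIV to release particles. Its gene lies on chromosome 5 (minus strand, 11943154 to 11957014). FPKM values were 25.2, 30.4 and 45.3 in resistant 1 to 3, against 72.8, 28.0 and 61.1 in susceptible 1 to 3. Susceptible 1 and 3 stood above every resistant bird, but susceptible 2 lay below resistant 2 and 3. Averages were 33.7 ± 10.4 in resistant livers and 54.0 ± 23.3 in susceptible livers (SD, n = 3 each). It rested on 160 to 548 fragments per bird, the most of any member in all birds but susceptible 2. Its log2 fold change was -0.60 (SE 0.48, 95% interval -1.68 to 0.48), the narrowest interval among the members, with a limma adjusted p of 0.984. Without susceptible 2 the value was -1.01, and without susceptible 1 it was -0.33.

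Of 37 symbols for ESCRT and budding genes, 30 were in the table and 28 were tested. They divided evenly, 14 higher and 14 lower in resistant birds around a median log2 fold change of -0.01, and 0 passed limma over all genes. CHMP1A and STAM2 had an unadjusted p under 0.05 by limma, in opposite directions, as did 3.87% of all genes tested in either direction. CHMP1A, a late-acting ESCRT-III subunit, had 2.11, 6.66 and 11.0 in resistant 1 to 3 with each of the 3 susceptible birds at 0. Fitted against a group at 0, its log2 fold change of 2.72 depends on the pseudocount and was 5.78 with a pseudocount of 0.1. STAM2, an ESCRT-0 subunit that binds ubiquitinated cargo before TSG101 does, had 12.6, 19.5 and 10.1 in resistant 1 to 3, against 40.1, 36.3 and 28.9 in susceptible 1 to 3, a log2 fold change of -1.30 (SE 0.47). PTPN23, which bridges ESCRT complexes, had 1.37, 1.14 and 3.12 in resistant 1 to 3, against 0, 0.752 and 0 in susceptible 1 to 3. VPS37C, a partner of TSG101 in ESCRT-I, was listed at 0 in 3 birds. The adjusted p of each was 0.984 by limma.

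TRIM62 is a tripartite-motif ubiquitin ligase, annotated in the table with terms for regulation of viral entry, transcription and release. Whether it helps or hinders a virus is not given here. On chromosome 21 (plus strand, 6513558 to 6516128), it had an FPKM of 5.36, 0 and 0 in resistant 1 to 3. In susceptible 1 to 3 it had 2.61, 9.05 and 16.4. The single resistant bird above 0 exceeded susceptible 1, so the groups overlapped. The log2 fold change was -2.21 (SE 1.04, 95% interval -4.54 to 0.11). limma gave an unadjusted p of 0.060 and an adjusted p of 0.984. The log2 fold change was -4.29 with a pseudocount of 0.1 and -0.43 with 0s treated as missing, where resistant 1 alone stood for its group. Among the 4 birds with chromosome W fragments the log2 fold change was -1.26. It was -3.10 without resistant 1 and -2.84 without susceptible 1, where limma gave unadjusted p of 0.021 and 0.032. Leaving out any other single bird gave -2.10 to -1.70, with an unadjusted limma p of 0.11 to 0.18. Of 2116 genes at a like mean level, 8.65% were listed at 0 in resistant 2 and 20.2% in resistant 3.

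Tripartite-motif and butyrophilin genes were tested in 20 cases, of 31 in the table. In resistant birds 12 were higher and 8 lower around a median log2 fold change of 0.16, with 0 passing limma over all genes and 0 at an unadjusted p under 0.05. TRIM14, an adaptor of antiviral signalling encoded on chromosome Z, had 3.29, 0 and 0 in resistant 1 to 3, against 4.85, 6.60 and 4.88 in susceptible 1 to 3. TRIM25, the ubiquitin ligase of RNA-sensor signalling, had 78.5, 80.7 and 28.0 against 57.2, 17.2 and 22.0 in susceptible 1 to 3. TRIM13 and TRIM3 had log2 fold changes of 2.22 and 0.88. TRIM13 was listed at 0 in susceptible 2 and 3. Its value was 0.036 with 0s as missing, where susceptible 1 alone stood for its group, and 3.31 without susceptible 1. TRIM3 had 15.1, 11.4 and 9.16 in resistant 1 to 3, against 9.08, 7.91 and 2.62 in susceptible 1 to 3.

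CCDC84 encodes a coiled-coil protein known in human cells as a component of the minor spliceosome, which removes a rare class of introns. Its gene lies on chromosome 24 (plus strand, 5653031 to 5656557). FPKM values were 2.09, 0 and 11.6 in resistant 1 to 3, resting on 11, 0 and 36 fragments, and the 3 susceptible birds were listed at 0. Most of the level stood in resistant 3, and resistant 2 shared the 0 of the susceptible birds. Fitted against a group at 0, its log2 fold change of 1.76 (SE 0.97, 95% interval -0.40 to 3.92) depends on the pseudocount and was 3.77 with a pseudocount of 0.1. limma gave an adjusted p of 0.984. The value was 2.64 without resistant 2, with an unadjusted p of 0.027 from limma against 0.099 with all birds, and 0.81 over the 4 birds with chromosome W fragments. Leaving out resistant 1 or any single susceptible bird gave an unadjusted limma p of 0.15 to 0.17. Without resistant 3 the gene fell under the filter and was not tested. Among 1497 genes at a like mean level, 17.8% were listed at 0 in 4 or more birds.

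Of the 12 minor spliceosome genes tested, CCDC84 included, 83.3% were listed at 0 in at least 1 bird, against 48.1% of all genes tested. In resistant birds 7 were higher and 5 lower, and the median log2 fold change was 0.55. That median was -0.03 without susceptible 3 and -0.40 with a filter of 5 FPKM. ZMAT5, a protein of the U11/U12 particle, had 3.20, 5.69 and 9.42 in resistant 1 to 3, against 0, 0 and 3.19 in susceptible 1 to 3. It was the only gene of the list whose groups did not overlap, against 8.41% of all genes tested. SNRNP25 and SNRNP48, further proteins of that particle, were listed at 0 in resistant 3, where CCDC84 had its highest level, and in the 3 susceptible birds. SNRNP35 had a log2 fold change of 1.11, which was 0.33 without resistant 3 and 2.12 without susceptible 1. It was -0.18 over the birds with chromosome W fragments and -0.92 with 0s as missing, where susceptible 1 alone stood for its group. None passed limma over all genes, and 1, ZMAT5, had an unadjusted p under 0.05, against 3.87% of all genes tested.

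**Figure D3:**
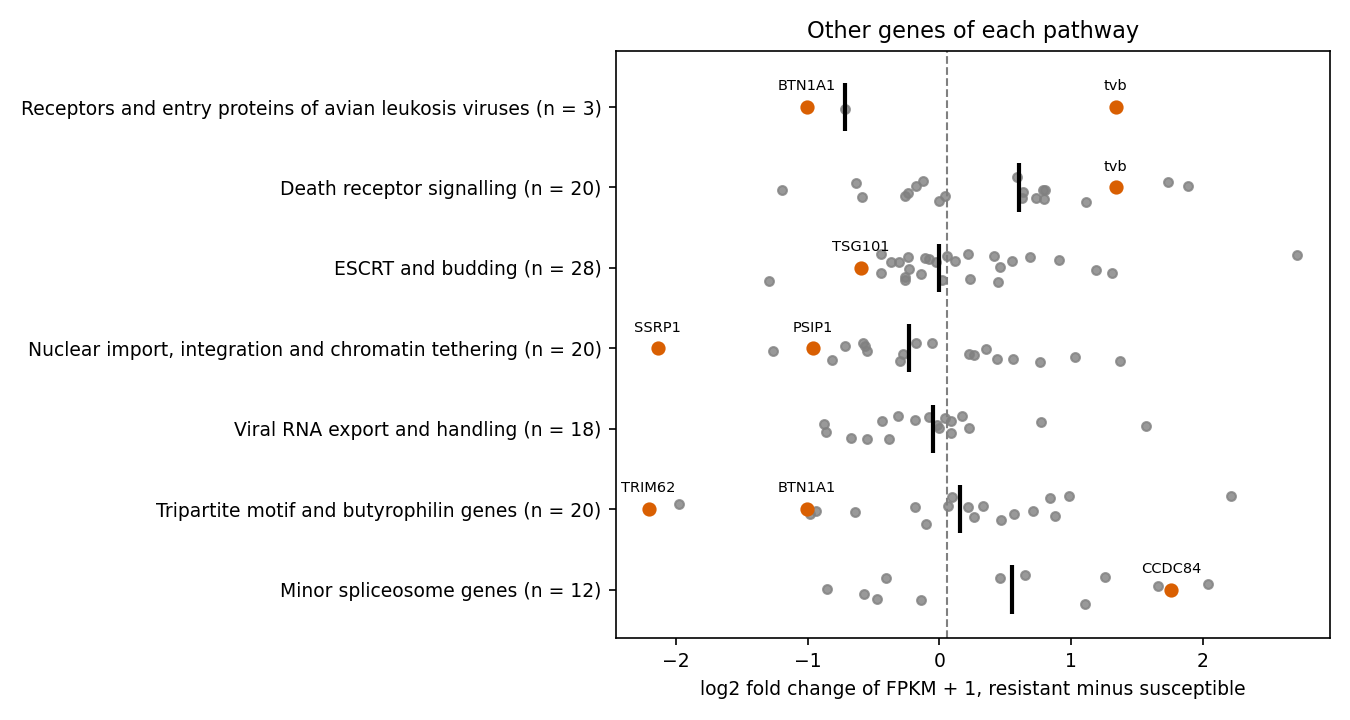
Log2 fold change of FPKM + 1 (x axis), resistant minus susceptible, of the tested genes in each of 7 pathway lists; orange points are the 7 members, grey points the other genes, black bars the list medians and the dashed line the median of all genes tested, 0.05. SSRP1 and TRIM62 stand at the low end of their lists, at -2.14 and -2.21, while CCDC84, at 1.76, lies among the higher genes of its own.

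Genes with the most similar course over the 6 birds were sought for the 3 members without a listed 0, by the root mean square difference in centred log2(FPKM + 1) over 4267 genes. For TSG101 the nearest were a gene named only as Protein in the table, at 0.05, and VPRBP, at 0.08, against a median of 0.74 over the genes compared. SSRP1 had CISD1 at 0.31 and SAR1A at 0.42, with a median of 1.39. PSIP1 was nearest to SLTM at 0.35 and TIMM8A at 0.38, with a median of 1.25. CISD1, an iron-sulfur protein of mitochondria, had an FPKM of 24.3, 56.4 and 7.18 in resistant 1 to 3, against 61.1, 85.4 and 89.7 in susceptible 1 to 3. With 6 birds and that many genes, close matches of this kind are a description only.

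**Figure D4:**
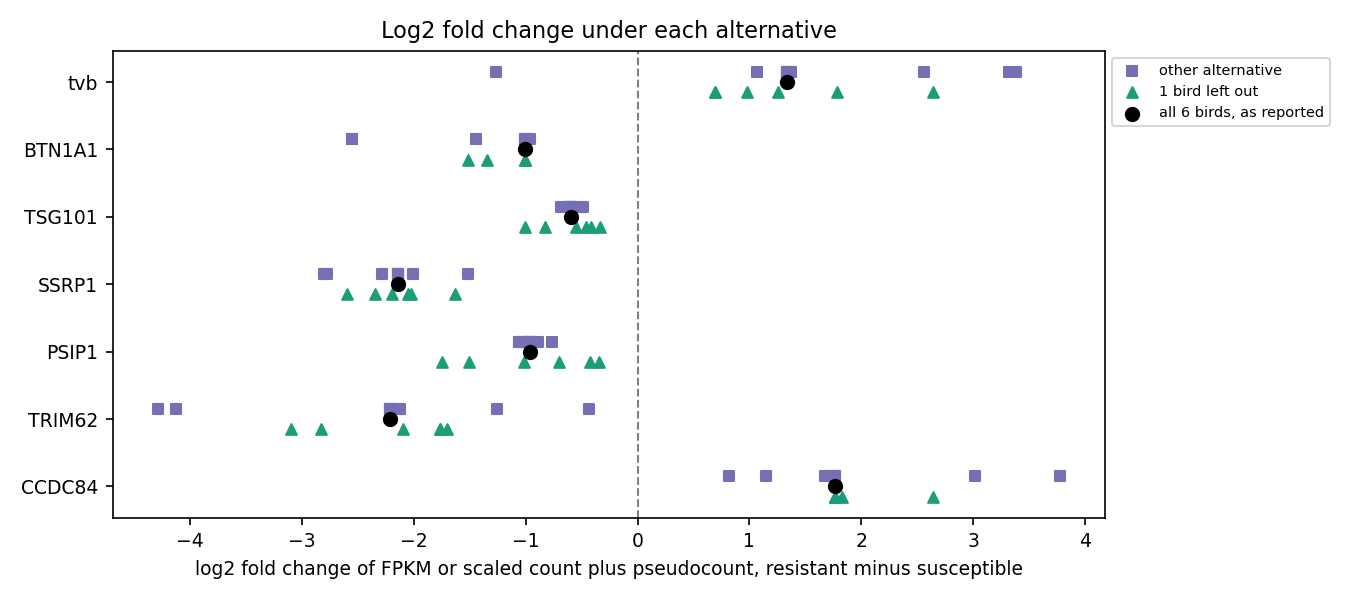
Log2 fold change, resistant minus susceptible (x axis), of each gene with all birds as reported (black), with 1 bird left out (triangles) and under the other alternatives (squares), which include another pseudocount and scaled counts. The points of 6 genes keep their sign, and tvb alone has a point on the other side of 0, at -1.26 with 0s as missing. For SSRP1, whose groups did not overlap, and for BTN1A1 and CCDC84, each with a group at 0, leaving out birds could not change the sign. Robust moderation, the filters and the replicate block could not move a point of any gene. BTN1A1 and CCDC84 have no point with 0s as missing or with a filter of 5 FPKM.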

How the data were processed

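The table held FPKM values made by the authors for 6 livers. Per the submitters' processing notes, cutadapt 1.9.3, HISAT2 2.0.4, Cufflinks and Cuffdiff were used with the galGal4 build; which tool served which step, the annotation and the use of strand are not given in the sources used here. A signal named counts per the file headers was deposited beside them and is read here as fragments divided by a factor per bird, since 99.3% to 99.6% of its values were whole multiples of a step within 0.02 steps. Starts were raised by 1 to count from 1.

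Testing used limma 3.58.1 under R 4.3.3 on log2(FPKM + 1), for genes whose FPKM averaged at least 0.5 (trended eBayes, 2-sided, Benjamini-Hochberg over 9626 genes, threshold 0.05). No list was tested as a set. The members and gene lists were chosen with earlier results of these data known. Text names all members and, per list, the 4 other genes with the smallest p, plus genes counted singly. There were 0 columns of other samples. The fits were tested on simulated data. P-values measure the spread between birds. Symbols missing from the table were not analysed here, nor were sequences. Figures used matplotlib 3.10.9.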

Additional observations from a re-analysis of the deposited data

How the results depend on the processing

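limma called 0 genes over the whole table, 0 members and 0 listed genes under each of the 16 alternatives. The members kept their direction except tvb, at -1.26 with 0s as missing, where susceptible 3 alone stood for its group. Robust moderation, the filters and the replicate block could not move a log2 fold change, nor could 0s as missing for members without a listed 0. For SSRP1, BTN1A1 and CCDC84 leaving out birds could not change the direction, since no value of 1 group lay beyond the other. SNRNP35 was -0.92 with 0s as missing, with susceptible 1 alone in its group, and -0.18 over the birds with chromosome W fragments. The counts at an unadjusted p under 0.05, 231 higher and 142 lower in resistant birds, became 81 and 105 with a filter of 5 FPKM, 85 and 341 with 0s as missing, 390 and 183 over the birds with chromosome W fragments and 185 and 97 with scaled counts. Without resistant 2 they were 222 and 78. The cause was not tested. Same-numbered birds had deviations correlated at 0.01, 0.04 and 0.17, against -0.13 to 0.12 for birds with different numbers. With 3 birds in each group, these values cannot settle whether the numbers pair the birds. With a replicate block limma called 0 genes, 0 members and 0 listed genes. The lowest adjusted p was 0.363 there and 0.580 without the block. The planned edgeR and DESeq2 alternatives were not run. The deposited counts are scaled values, and 2 to 6 per bird lay above 0 but not above 0.1. Whole counts were therefore not taken as recovered for every gene. BTN1A1 without susceptible 3, over the birds with chromosome W fragments and with 0s as missing, and CCDC84 without resistant 3 and with 0s as missing, gave no value, nor did either with a filter of 5 FPKM. Depth limits the low values: SSRP1 rested on 4 fragments in resistant 3 and BTN1A1 on 2 in susceptible 2.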
